A study of Hydra vulgaris with 22 samples.

Results

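These results concern 150 transcripts of Hydra vulgaris whose level was lower after 10 days than after 3 days without food in both epithelial layers. They were taken from 44306 transcript stems, a stem being all contigs of the assembly that share an identifier up to the isoform number. Counts were summed per stem and scaled by the library total to CPM, where 1000 CPM is 0.1% of the counts, and group means were taken. A stem had to reach a mean of 10 CPM in both layers at 3 days and of 2 CPM in both layers at 10 days, which 5200 stems did. The ratio of the 3-day to the 10-day mean had to be at least 1.4 in each layer, which 185 of them met, and the 150 with the highest smaller ratio were kept. The transcripts were thus chosen by the 3-day to 10-day difference in the epithelial libraries, which is described here without a test.

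The animals were polyps of strain AEP, fed 3 times per week before food was withheld, and the tissue was the central body column with the apical and basal regions removed. Cells carrying eGFP were isolated by fluorescence-activated cell sorting, and their polyadenylated RNA was sequenced as directional TruSeq libraries. Epidermal epithelial stem cells (eESC) and gastrodermal epithelial stem cells (gESC) came from actin::eGFP animals, and interstitial stem cells (ISC) from cnnos1::eGFP animals. The promoter and the sorting gate thus define each population, and whether a line was 1 clone or animals were pooled is not given in the sources used here. The epithelial groups were eESC_3d (n = 3), gESC_3d (n = 3), eESC_10d (n = 4) and gESC_10d (n = 3), named for their days without food. Interstitial cells were collected in a gate of high eGFP (ISC_high, n = 4, with 2, 3, 3 and 5 days without food in replicates A to D) and of medium eGFP (ISC_medium, n = 3, with 5, 3 and 3 days in replicates A to C). In addition, 1 unsorted body column of each line was sequenced at 10 days (2 libraries). Since the label of the unsorted cnnos1 column names gESC as its eGFP cells, it is referred to by its line. Nothing in the labels says that replicates came from separate cultures or animals, so p-values measure only the spread between these libraries, which may be technical.

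The body wall of a Hydra polyp has an epidermis on the outside and a gastrodermis lining the gut. Each is a sheet of epithelial cells that divide throughout the body column and are displaced towards the ends and into buds. Interstitial stem cells sit mostly between the epidermal cells and give rise to nerve cells, stinging cells, gland cells and germ cells. Growth and budding depend on food: a polyp without food stops budding and shrinks, and its epithelial cells are known to digest part of their own content. The contigs could not be tied to known genes: of 61501 contig identifiers and 44306 stems, 0 matched the reference table of 28925 genes. No gene name, role, sequence or cell type marker is therefore given, and the identity of the sorted cells could not be checked against markers. A CPM value is not divided by transcript length, so an order of transcripts by CPM is one of their share of reads and not of molecules.

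The libraries fell into 2 classes of depth, and gESC_3d was the only group with libraries of both. All 10 libraries under 22000000 counts held at most 20327106 counts, and all 12 above it held at least 25195891. The shallow class held the 3 eESC_3d libraries, gESC_3d replicates A and B, the 3 ISC_medium libraries and the 2 unsorted columns. The deep class held the 7 epithelial libraries of 10 days, the 4 ISC_high libraries and gESC_3d replicate C. Days without food and depth class thus coincide in the epidermal layer and cannot be told apart there, and in the gastrodermal layer they part only in gESC_3d replicate C. What produced the classes is not given in the sources used here. In sorted cells, as in any bulk sample, fewer cells of a type and less RNA per cell cannot be told apart. To look for RNA of other cells without markers, 45 stems were taken whose unsorted level was at least 10 CPM and at least 10-fold that of the sorted groups, and 4 stems in the same way for interstitial over epithelial cells. The 45, chosen for low levels in the sorted groups, took 0.984% and 1.02% of the counts in the unsorted columns. They took 0.0103 to 0.0202% in eESC_3d, 0.0102 to 0.0951% in eESC_10d, 0.0247 to 0.0560% in gESC_3d and 0.0305 to 0.0699% in gESC_10d, and these low shares were largely fixed by that choice. The 4 interstitial stems, chosen for low epithelial levels, took 0.0170 to 0.0232% in the interstitial libraries and at most 0.001002% in any epithelial one. None of the 150 transcripts belonged to either set (0 and 0). Each had to reach 10 CPM in both layers at 3 days, so this absence from these small sets was largely fixed by the choice. It is no check for RNA of other cells.

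Together the 150 transcripts took 7.13 to 7.88% of the counts in the eESC_3d libraries and 4.13 to 4.42% in the eESC_10d libraries. In the gastrodermal layer they took 6.21% in gESC_3d replicate A and 6.28% in replicate B, but 3.69% in replicate C, beside 3.09 to 3.57% in gESC_10d. Replicate C, the deep library of its group, thus lay next to the 10-day libraries and not beside the other 2 of its own day. The 9 libraries that the choice of members did not use fell the same way: the share was 4.33 to 4.72% in the 4 deep ISC_high libraries, 5.40 to 6.61% in the 3 shallow ISC_medium libraries, and 5.97% and 5.81% in the shallow unsorted columns, although those had gone 10 days without food. Over all 22 libraries, every shallow library gave at least 5.40% and every deep one at most 4.72%. The 13 epithelial libraries among them chose the transcripts, so their part of this split was largely fixed by the choice. The others also differ in gate or, in the unsorted columns, in the cell types they hold. Since gESC_3d replicate C lay next to the 10-day libraries, the working name of these transcripts, lowered by starvation, is not carried by every library. The transcripts are called here the 10-day-lower transcripts, after the rule that chose them. Whether depth class takes part in their epidermal difference cannot be told apart from the days without food.

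**Figure D1:**
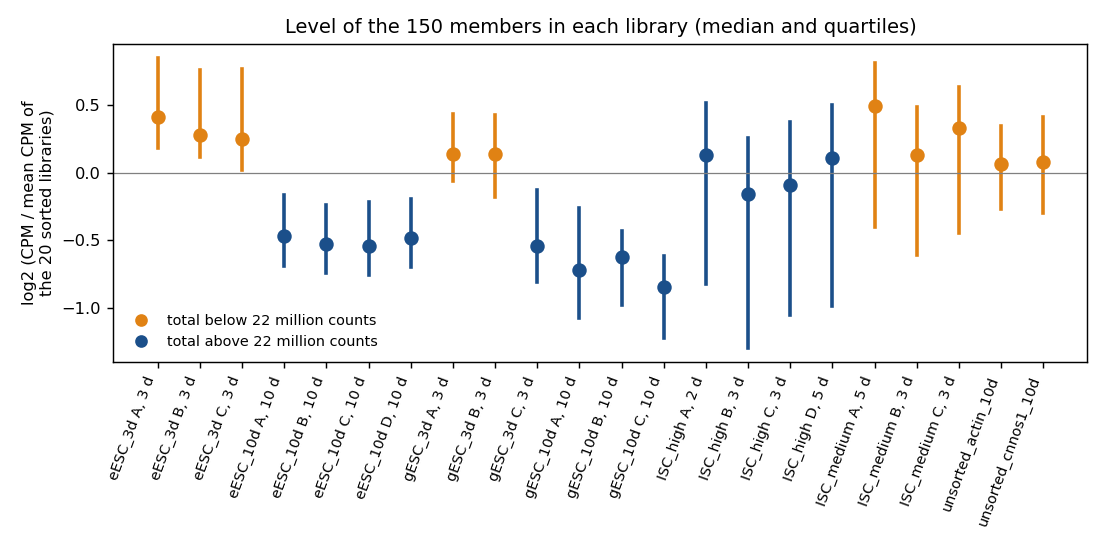
Level of the 150 transcripts in each of the 22 libraries, as log2 of CPM over the mean CPM of the 20 sorted libraries. Points are medians over the transcripts and bars run from the lower to the upper quartile; blue libraries hold more and orange ones fewer than 22000000 counts. The median of gESC_3d replicate C (-0.54) lies beside those of the 10-day libraries (-0.84 to -0.47), and the unsorted 10-day columns (0.061 and 0.078) lie above all 10-day sorted libraries.

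In the epidermal layer the ratio of the 3-day to the 10-day mean ran from 1.43 to 5.74 with a median of 1.73, against a median of 0.924 over the 5200 stems that met the level conditions. It was at least 2 in 37 transcripts and at least 3 in 8. In the gastrodermal layer the ratio ran from 1.43 to 8.94 with a median of 1.57, against 0.949 over the 5200, and it was at least 2 in 18 and at least 3 in 5. Both ratios were at least 2 in 14 transcripts. The epidermal ratio was the larger in 116 of the 150 and the gastrodermal ratio in 34. Among the 5200 stems, 430 (8.27%) had an epidermal ratio of at least 1.4 and 259 (4.98%) a gastrodermal one. The last transcripts inside the list were c16097_g1, with ratios of 1.80 and 1.43, and c12781_g1, with 1.43 and 1.45. The first outside it were c21933_g1, with 1.43 and 1.43, and c25925_g1, with 1.43 and 1.44, so the end of the list is not marked by a gap.

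**Figure D2:**
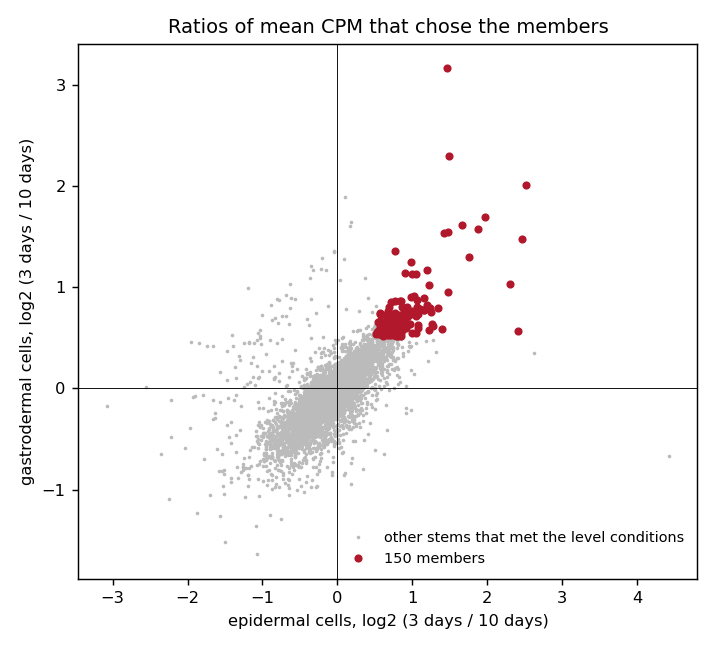
Ratio of mean CPM at 3 days over 10 days, as log2, in the epidermal layer (x axis) and the gastrodermal layer (y axis) for the 5200 stems that met the level conditions. The 150 chosen transcripts are red and lie at the upper right by construction; the median ratio of all 5200 is below 1 on both axes (0.924 and 0.949).

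The transcripts spanned a wide range of abundance. The eESC_3d mean ran from 14.6 to 10860 CPM, with 15 transcripts at 1000 CPM or more and 60 under 100 CPM. The median over the 150 was 141 CPM in eESC_3d, 92.0 in gESC_3d, 74.4 in eESC_10d and 54.4 in gESC_10d. The same medians over the 5200 stems were 39.5, 37.0, 43.6 and 39.4 CPM, so the chosen transcripts had the higher median share of reads in each of the 4 groups, at 10 days as well.

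In the epidermal layer all 3 libraries of 3 days lay above all 4 of 10 days for 149 of the 150 transcripts, where 9.47% of all 18288 stems tested did. In the gastrodermal layer this held for 95, where 4.82% of all stems did. By edgeR's quasi-likelihood fit over all sorted libraries, 135 of the 150 passed an adjusted p of 0.05 as lower at 10 days in the epidermal layer (5.76% of all stems, with 6.52% higher) and 5 in the gastrodermal layer (0.0601%, with 0.00547% higher, 0.0656% in all). None of the 150 was called higher (0 and 0). These counts repeat the choice of the transcripts. The median fitted log2 change from 3 to 10 days was -0.98 in the epidermal layer, against 0.16 over all stems, and -0.89 in the gastrodermal layer, against 0.040. A further fit added a term for depth class, and the medians there were -0.17 and -0.28, against 0.19 and 0.046 over all stems. That term rests only on gESC_3d replicate C beside A and B, since every other sorted group was of a single depth class. These libraries also entered the choice of the transcripts. In that fit 96 transcripts stayed below 0 and 54 lay above it in the epidermal layer, and 127 lay below and 23 above in the gastrodermal layer.

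The gastrodermal libraries allowed a library-by-library view. Taking gESC_3d replicates A and B alone, the ratio to the gESC_10d mean was 1.44 to 11.4 with a median of 1.76, and at least 1.4 in all 150. Taking replicate C alone, which had the depth of the 10-day libraries, the ratio ran from 0.682 to 4.59 with a median of 1.19, against a median of 1.05 over the 5200 eligible stems. It was at least 1.4 in 29 transcripts, above 1 in 121 and below 1 in 29. Replicate C was the lowest of the 3 libraries in 137 of the 150, where it was lowest in 34.1% of the eligible stems, and the highest in 8. Replicates A and B both lay above all 3 gESC_10d libraries for 148 transcripts (11% of all stems), and replicate C did so for 97 (26.6% of all stems). All of these libraries entered the choice, which favours stems that are high in most of the gESC_3d libraries. The ratios, ranks and counts are therefore partly fixed by the choice, and the shares of other stems are no test of them.

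Among the 8 transcripts with the highest smaller ratio, libraries of one group spread widely in some and little in others. For c31317_g1, with ratios of 5.74 and 4.02, the eESC_3d libraries gave 394, 239 and 265 CPM and the eESC_10d libraries 68.7, 57.3, 47.7 and 35.0. Its gESC_3d libraries gave 244, 194 and 81.0 CPM and its gESC_10d libraries 19.6, 73.4 and 36.2. The groups did not overlap in either layer, but the deep 3-day library of the gastrodermis, at 81.0 CPM, lay next to the highest 10-day one. In interstitial cells the same transcript gave 41.6, 39.1, 248 and 31.7 CPM in ISC_high and 191, 188 and 207 in ISC_medium, so that 1 library of the high gate stood at the level of the medium gate.

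For c9192_g1, which had the highest gastrodermal ratio of the list (8.94, beside 2.75 in the epidermis), the values jumped between libraries of one group. The eESC_3d libraries gave 910, 662 and 639 CPM, and the eESC_10d libraries 461, 284, 312 and 16.0. The gESC_3d libraries gave 1043, 705 and 317 CPM and the gESC_10d libraries 13.1, 173 and 44.7. ISC_high gave 10.6, 7.60, 375 and 7.32 CPM. Thus 1 of 4 libraries was low in eESC_10d and 1 of 4 was high in ISC_high, by more than 10-fold in each case. The transcript c29930_g1 (ratios of 3.15 and 3.06), gave 12.3, 0.535, 30.6 and 0.619 CPM in ISC_high, with replicate C highest as in c31317_g1 and c9192_g1, and 48.8, 47.8 and 59.3 CPM in ISC_medium.

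By contrast, c26289_g1 (ratios of 3.93 and 3.22) varied little within groups. It gave 30.0, 29.5 and 28.2 CPM in eESC_3d and 7.43, 7.37, 8.28 and 6.73 in eESC_10d. In the gastrodermis it gave 22.1, 22.9 and 13.4 CPM at 3 days and 5.96, 6.77 and 5.39 at 10 days. Replicate C was here the lowest of its group but still above each 10-day library. For c25974_g2 (5.51 and 2.79) the eESC_3d libraries gave 38.0, 36.9 and 42.9 CPM and the eESC_10d libraries 7.89, 7.09, 5.99 and 7.55. Its gESC_3d libraries gave 20.2, 15.9 and 4.79 CPM and its gESC_10d libraries 5.29, 5.01 and 4.38, so replicate C lay inside the 10-day range. For c19030_g2 (3.68 and 2.98), gESC_3d gave 89.6, 77.3 and 23.6 CPM and gESC_10d 18.5, 23.6 and 21.8, and replicate C again lay at the top of the 10-day range.

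In c24865_g1 and c23486_g2 the gastrodermal difference was as clear in replicate C as in the other libraries. For c24865_g1 (2.81 and 4.89) the gESC_3d libraries gave 311, 393 and 320 CPM and the gESC_10d libraries 79.7, 70.3 and 59.4. Its eESC_3d libraries gave 73.8, 52.3 and 71.2 CPM and its eESC_10d libraries 24.1, 20.0, 27.1 and 22.3. For c23486_g2 (2.78 and 2.92) gESC_3d gave 24.7, 39.4 and 39.2 CPM and gESC_10d 17.2, 10.6 and 7.69. It gave 638, 715 and 1170 CPM in eESC_3d and 260, 290, 293 and 369 in eESC_10d. These 2 transcripts were close to absent from interstitial cells, at 0.0774 to 1.92 CPM and 0.148 to 3.25 CPM.

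**Figure D3:**
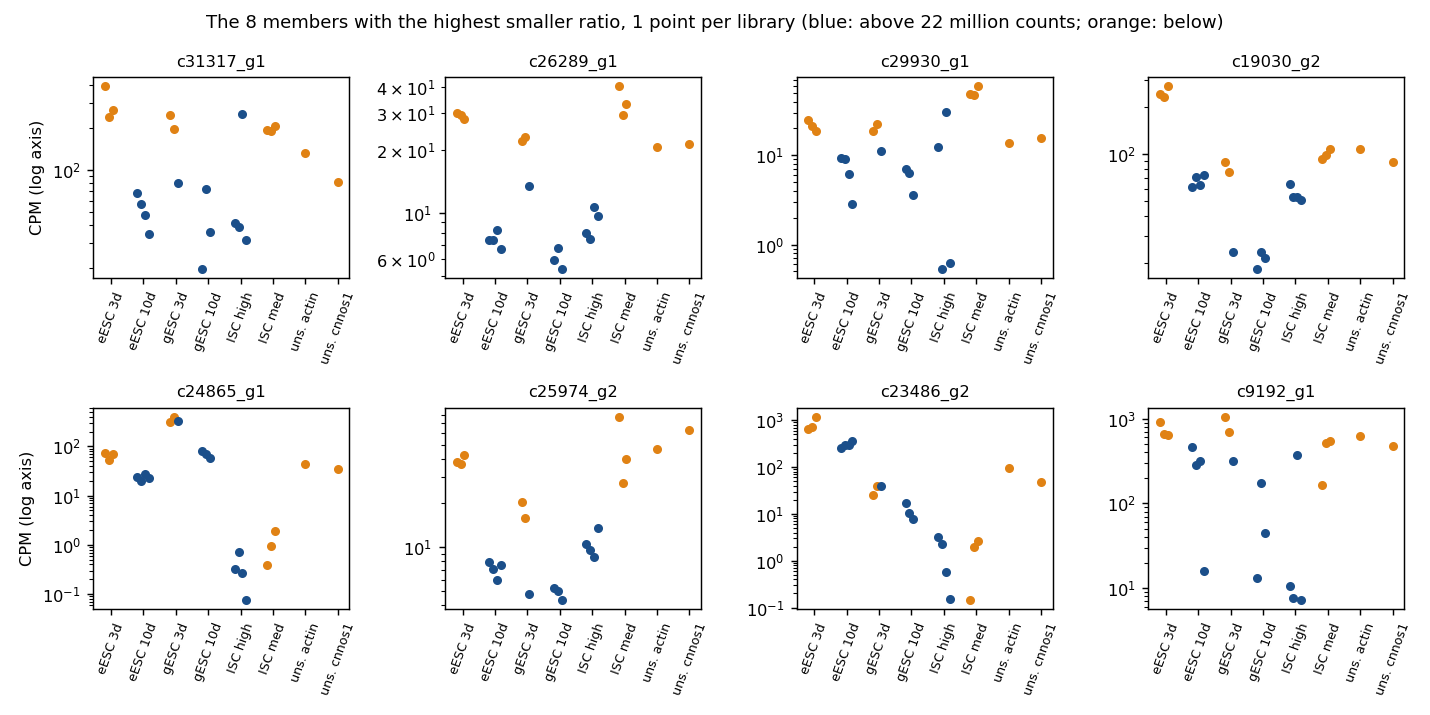
CPM of the 8 transcripts with the highest smaller ratio, on a log axis, with 1 point per library; orange points are libraries under and blue points libraries over 22000000 counts. In c25974_g2 the deep gESC_3d library (4.79 CPM) lies within the 10-day range, in c24865_g1 (320 CPM) it lies with the other 3-day libraries, and in c9192_g1 single libraries of eESC_10d (16.0 CPM) and ISC_high (375 CPM) stand apart from their groups.

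The 4 transcripts with the most reads over the epithelial libraries, not corrected for length, were c25846_g1, c22299_g2, c26346_g1 and c26175_g1. The mean of c25846_g1 was 10860 ± 1003 CPM (SD, n = 3) in eESC_3d and 6514 ± 452 (n = 4) in eESC_10d. In gESC_3d it gave 8767, 9939 and 4871 CPM, beside 5005 ± 254 (n = 3) in gESC_10d, so replicate C lay below the 10-day mean. The same order was seen in c26346_g1, with 4512, 4623 and 2042 CPM in gESC_3d and 2423 ± 196 in gESC_10d, and in c26175_g1, with 2561, 2826 and 1430 CPM and 1558 ± 112. In c22299_g2 replicate C, at 823 CPM beside 1325 and 1372, lay above the gESC_10d mean of 752 ± 161 CPM but within 1 SD of it. The transcripts c25846_g1, c26346_g1 and c26175_g1 were also the 3 of the list with the most reads in ISC_high, at 5258 ± 151, 3465 ± 220 and 3445 ± 192 CPM (n = 4).

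The contigs within a stem are described here by the values that chose the stems, so a fall of the leading contigs was largely fixed by that choice. A single contig made up 77 of the 150 transcripts (51.3%, and 51.4% of the eligible stems), and the other 73 held 249 contigs, at most 11 in 1 stem. Of these contigs 146 reached 2 CPM in both layers at 3 days. Of the 146, the level was lower at 10 days in both layers in 128, in 1 layer in 13 and in neither in 5. The most abundant contig was the same at 3 and 10 days in 67 of the 73 in the epidermis and in 70 in the gastrodermis. It differed in at least 1 layer in 8 transcripts, and in both layers in c17975_g1, where contig 02 led at 3 days and contig 05 at 10 days. How the counts of similar contigs were shared between them is not given in the sources used here, so contig levels within a stem are uncertain.

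The 150 transcripts came from 148 components of the assembly, and 2 components held 2 transcripts each. In component c21792, c21792_g1 gave 17.7 ± 3.13 and 8.57 ± 1.27 CPM in eESC at 3 and 10 days, and c21792_g2 gave 284 ± 26.3 and 158 ± 5.33 CPM. In component c23486, c23486_g1 gave 295 ± 127 and 149 ± 23.8 CPM in the same groups, beside 841 ± 287 and 303 ± 46.3 CPM for c23486_g2. Transcripts of 1 component can share sequence and so reads, and they are not independent of each other.

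The difference between the 2 layers was not used to choose the transcripts, apart from the level that each layer had to reach. At 3 days 36 of the 150 (24%) differed between gESC and eESC at an adjusted p of 0.05 by edgeR's quasi-likelihood test with Benjamini-Hochberg adjustment, 7 higher and 29 lower in gESC. Of all 18288 stems 49.6% differed, 24.9% higher and 24.7% lower, and of the 5200 eligible stems 41.2% did. With each library scaled by its total alone, as in the choice of the transcripts, 68 of the 150 differed, 7 higher and 61 lower, against 49.2% of all stems, and whether these shares differ was not tested. A 2-fold difference or more was fitted in 21 of the 36 called, 3 higher and 18 lower in gESC, and the median log2 difference over the 150 was -0.18. Without gESC_3d replicate C, which leaves libraries of 1 depth class, 38 were called, 17 higher and 21 lower, where 42.8% of all stems were. The excess of lower calls at 3 days was thus smaller without that library but was not gone.

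At 10 days, where all libraries compared were deep, 38 of the 150 (25.3%) differed, 15 higher and 23 lower in gESC. Of all stems 51.9% differed (24% higher and 28% lower), and of the eligible stems 39.6%. With each library scaled by its total alone, 59 were called, 15 higher and 44 lower, and the median over all stems moved from -0.041 to -0.20. The share of all stems called under that scaling is not given here, so the 59 shows only that the count depends on the scaling. Called at both times were 7 transcripts higher in gESC (21.4% of all stems) and 21 lower (22.1%), and none (0) was called in opposite directions (0.0109%). At neither time 104 were called (41.9% of all stems). Both times share no library.

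Some of the called transcripts had most of their level in 1 layer. The largest excess in gESC was in c25215_g1, at 497, 417 and 370 CPM in gESC_3d and 55.2, 69.3 and 54.4 in eESC_3d. Its log2 difference was 3.05 at 3 days (SE 0.36, edgeR adjusted p = 1.05e-06) and 2.98 at 10 days (SE 0.32, edgeR adjusted p = 3.02e-07), so the layer difference was kept while the level fell in both. The lowest in gESC was c23486_g2, whose values are given above, with log2 differences of -4.42 (SE 0.69) and -4.50 (SE 0.68). The transcript c36244_g1 gave 18.7, 18.2 and 16.3 CPM in gESC_3d and 247, 187 and 258 in eESC_3d, with differences of -3.52 (SE 0.42) and -3.03 (SE 0.40), and c23486_g1 had -3.18 (SE 0.53) and -3.44 (SE 0.53). In c22618_g1 gESC was higher by 1.32 (SE 0.27) and 1.93 (SE 0.25) on the log2 scale.

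In c23898_g1 the layers differed in a called amount at 10 days and not at 3 days. It gave 904, 890 and 415 CPM in gESC_3d and 650, 479 and 488 in eESC_3d, which overlapped, and the log2 difference was 0.66 (SE 0.38, edgeR adjusted p = 0.167). At 10 days eESC gave 78.9, 87.0, 140 and 101 CPM and gESC averaged 498 ± 61.0 CPM (n = 3), a log2 difference of 2.44 (SE 0.36, edgeR adjusted p = 1.2e-05). Its ratio of 3 to 10 days was 5.30 in the epidermis and 1.48 in the gastrodermis, and the difference between those ratios was not tested.

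**Figure D4:**
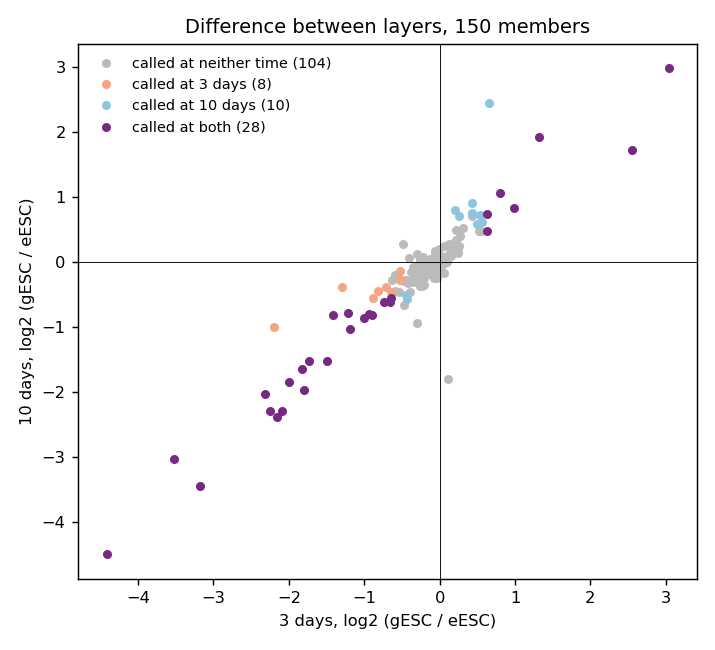
Fitted log2 difference between gESC and eESC for the 150 transcripts at 3 days (x axis) and at 10 days (y axis), 1 point per transcript, coloured by the times at which it was called. The transcripts called at both times (7 higher and 21 lower in gESC) lie in the 2 quadrants of equal sign, and c23486_g2 (-4.42 and -4.50) and c25215_g1 (3.05 and 2.98) are the extremes.

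No interstitial library took part in choosing the transcripts. Most of them were present there: 137 of the 150 reached a mean of 2 CPM in at least 1 gate. The median over the 150 was 63.6 CPM in ISC_high and 71.6 in ISC_medium, against 46.4 and 33.7 over the eligible stems. The ISC_high mean lay above both epithelial means of 3 days in 55 transcripts and below both in 72, and it lay above both means of 10 days in 95 and below both in 41. The epithelial means chose the transcripts, so the step from 55 to 95 is built in by the choice. The same counts were not taken over other stems. The median level of the transcripts in single libraries was 64.2, 51.0, 58.3 and 59.2 CPM in ISC_high and 87.5, 61.1 and 66.8 in ISC_medium.

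The 13 transcripts under 2 CPM in both gates (8.67%, beside 3.40% of the eligible stems) were c24865_g1, c23486_g2, c9188_g1, c18751_g1, c23486_g1, c36244_g1, c8113_g1, c8695_g1, c9373_g1, c22085_g1, c25562_g2, c22618_g1 and c25215_g1. All interstitial libraries came from the cnnos1 line and all epithelial ones from the actin line, so cell type and line cannot be told apart in the sorted cells. In c25562_g2 the level followed the line in whole tissue too, at 1168 CPM in the unsorted actin column and 0.573 in the unsorted cnnos1 column, while the other 12 gave at least 9.95 CPM in the cnnos1 column. Of the 13, 8 were higher in eESC_3d than in gESC_3d by their means. Their median level was 231 CPM in eESC_3d and 59.6 in gESC_3d. Their median ratio of 3 to 10 days was 2.08 in the epidermis and 1.94 in the gastrodermis, beside 1.71 and 1.55 in the other 137, a description of values that chose the list.

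The transcripts were for the most part higher in the medium gate than in the high gate. By edgeR's quasi-likelihood test 90 of the 150 (60%) differed, 88 higher and 2 lower in ISC_medium, where 34.5% of all stems differed (15.1% higher and 19.4% lower) and, of the eligible stems, 22.5% were higher and 26.4% lower. The fitted difference was positive in 139 and negative in 11, with a median log2 difference of 0.73 against -0.037 over all stems, and it reached 2-fold in 32 of the higher calls and 1 of the lower ones. All 3 ISC_medium libraries lay above all 4 ISC_high libraries in 42 transcripts (9.95% of all stems) and below them in 6 (32.7%). The ISC_medium libraries were all shallow and the ISC_high libraries all deep, so gate and depth class cannot be told apart. With library size alone as scaling 50 were called, 45 higher and 5 lower, and the median difference was 0.33 against -0.43 over all stems, so the count depends on the scaling. The share of all stems called under that scaling is not given here, and nothing further is read from the 50. With a term for depth class in the fit, 15 transcripts were called, 4 higher and 11 lower in ISC_medium, where 8.82% of all stems were, and the median difference was -0.21 against -0.22 over all stems. That term rests only on gESC_3d replicate C beside A and B, since every other sorted group was of a single depth class. No interstitial library informs it, and those gESC_3d libraries entered the choice, so this fit does not separate gate from depth.

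Values of single transcripts show the size of the gate difference. For c26289_g1 ISC_medium gave 40.3, 29.5 and 33.1 CPM and ISC_high 8.02, 7.49, 10.7 and 9.68, a log2 difference of 2.33 (SE 0.23, edgeR adjusted p = 3.23e-07). For c25974_g2 ISC_medium gave 77.2, 27.2 and 39.8 CPM and ISC_high 10.6, 9.52, 8.58 and 13.5, a log2 difference of 2.60 (SE 0.40, edgeR adjusted p = 4.78e-05). Neither overlapped between the gates, and in c25974_g2 the 5-day library of each gate was the highest of it. With the depth-class term the difference of c25974_g2 was 0.41 (edgeR adjusted p = 0.731). As no interstitial library informs that term, neither this value nor those with it below separate gate from depth. The largest difference was 2.75 (SE 0.35) in c22299_g2, at 42.3, 17.2 and 39.4 CPM in ISC_medium and 8.33, 10.6, 4.05 and 3.41 in ISC_high, far under its 6477 ± 323 CPM in eESC_3d (n = 3), and with the depth-class term it was 1.75 (edgeR adjusted p = 0.0703). In c8695_g1 it was 2.64 (SE 0.44), at levels under 1 CPM in every interstitial library. The lowest was -2.77 (SE 0.42) in c19554_g2, at 0.541, 0.323 and 1.17 CPM in ISC_medium and 8.10, 5.56, 4.63 and 6.08 in ISC_high. The other lower call was c19748_g1, at -0.69 (edgeR adjusted p = 0.0168). Its call was lost without ISC_high replicate A (edgeR adjusted p = 0.0620), without ISC_medium replicate A (0.0759) or C (0.0623), with only the groups compared (0.208) and with the depth-class term (0.184).

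Interstitial cells also gave the only change in days without food that did not enter the choice. Libraries of 5 days (ISC_high replicate D and ISC_medium replicate A) were compared with the 4 libraries of 3 days, with the gate and with it the depth class held in the fit. Of the 150 transcripts 20 (13.3%) were called by edgeR's quasi-likelihood test, 18 higher and 2 lower at 5 days, where 4.63% of all stems were called (3.95% higher and 0.684% lower) and, of the eligible stems, 8.98% higher and 1.04% lower. The fitted change was positive in 115 and negative in 35, with a median of 0.30 on the log2 scale against 0 over all stems. Calls thus leaned to higher at 5 days among the 150 as they did among the eligible stems. The 5-day library lay above both 3-day libraries in 82 transcripts in the high gate (29.1% of all stems) and in 88 in the medium gate (31.5%). It did so in both gates in 74 (19.4% of all stems), and it lay below in both gates in 20 (22.5%). The 2-day library of the high gate lay above both 3-day libraries in 107 (42.6% of all stems), and its median level of 64.2 CPM was above the 59.2 CPM of the 5-day library, so the levels did not follow the days in order. With 1 library of 5 days per gate, the calls rested on single libraries: without ISC_high replicate D or without ISC_medium replicate A none passed by edgeR (0 and 0), with 44 and 28 transcripts at an unadjusted p under 0.05, against 60 with all libraries. Of the remaining omissions, 9 were called without ISC_high replicate B, 13 without ISC_high replicate C, 6 without ISC_medium replicate B and 8 without ISC_medium replicate C. The shares of all stems called in these fits are not given here, so the counts show only that the number called moved.

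The largest of these changes was in c19075_g1, at 119 CPM at 5 days beside 44.2 and 35.2 at 3 days and 70.8 at 2 days in the high gate, and at 111 beside 42.5 and 61.2 in the medium gate. Its log2 change was 1.48 (SE 0.22, edgeR adjusted p = 0.00723). For c19540_g1 the values were 366 beside 229 and 204 CPM, with 258 at 2 days, and 558 beside 219 and 320, a log2 change of 1.04 (SE 0.25, edgeR adjusted p = 0.0295). For c14706_g1 they were 17.8 beside 9.31 and 8.58 CPM, with 14.4 at 2 days, and 23.9 beside 10.8 and 16.3, a log2 change of 1.04 (SE 0.22, edgeR adjusted p = 0.0195). In each of the 3 the 2-day library thus lay between the 3-day libraries and the 5-day one. In the epidermal layer these 3 transcripts had fallen from 167 ± 42.6 to 104 ± 13.9 CPM, from 243 ± 28.3 to 134 ± 9.11 CPM and from 41.7 to 17.4 CPM between 3 and 10 days, the values that chose them. The 2 lower calls were c23486_g2, at -3.40 (SE 0.65, edgeR adjusted p = 0.0116), and c24865_g1, at -1.94 (SE 0.50, edgeR adjusted p = 0.0386), both at the low interstitial levels given above. In all, 9 transcripts were called higher both in the medium gate and at 5 days (0.711% of all stems).

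**Figure D5:**
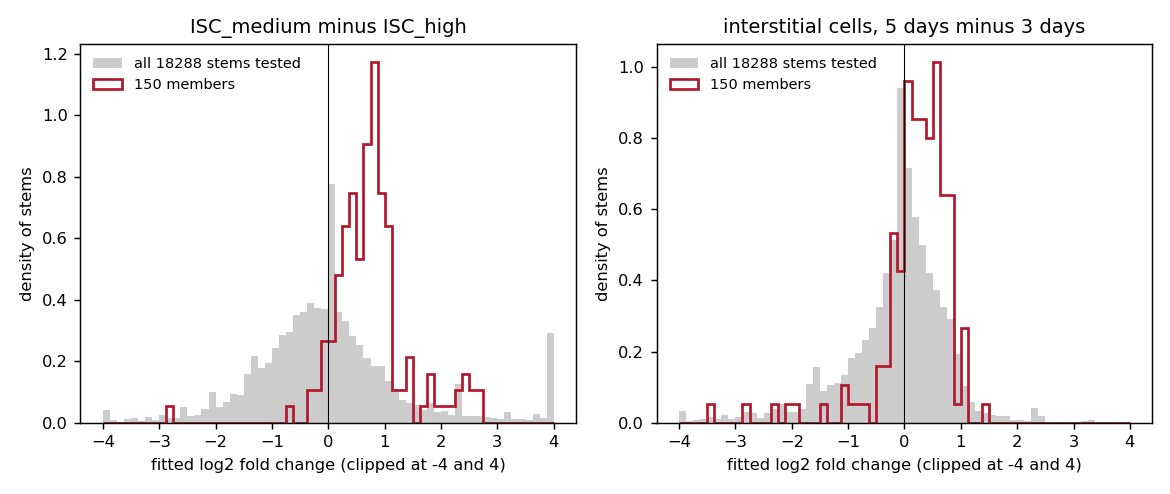
Fitted log2 differences in interstitial cells for the 150 transcripts (red outline) and all 18288 stems tested (grey), as density over stems, for ISC_medium minus ISC_high (left) and 5 days minus 3 days (right). The medians of the 150 lie to the right of 0 in both panels (0.73 and 0.30, against -0.037 and 0 over all stems), with 11 and 35 transcripts to the left of 0.

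The unsorted body columns, at 10 days without food, were single libraries of each line and were not tested. They hold all cell types of the tissue, and both were shallow. The median level of the 150 transcripts was 99.1 CPM in the actin column and 92.5 in the cnnos1 column, beside medians of 70.5 to 77.3 CPM in the single eESC_10d libraries and 46.8 to 58.3 in the gESC_10d libraries. Both columns lay above all 7 sorted epithelial libraries of 10 days in 101 of the 150, where 10.4% of all stems and 10.5% of the eligible stems did, and below all 7 in 2 (28.2% of all stems). The median ratio of the unsorted to the sorted 10-day level was 1.58 over the transcripts and 0.701 over the eligible stems. Against the 6 epithelial libraries of 3 days, both columns lay above all in 19 (11% of all stems) and below all in 15 (17.2%). The transcripts were chosen for low values in these same sorted 10-day libraries, so part of their excess over other stems is built in by the choice. The part of depth class, of sorting and of other cell types was not tested.

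The transcripts furthest above every sorted group in the unsorted columns were c14706_g1, c38743_g1 and c19540_g1. For c14706_g1 the columns gave 55.1 and 61.3 CPM, beside at most 45.8 in any sorted library, and the lower column was 1.31-fold the highest sorted group mean. For c38743_g1 they gave 36.8 and 38.9 CPM, 1.30-fold, and for c19540_g1 445 and 590 CPM, 1.21-fold. All 3 were among the transcripts called higher at 5 days in interstitial cells, c38743_g1 with a log2 change of 0.81 (SE 0.21, edgeR adjusted p = 0.0434). These calls rest on single 5-day libraries per gate. That of c19540_g1 was lost with median-of-ratios factors (edgeR adjusted p = 0.0598), the authors' factors (0.0615) and no filter (0.0559). It was also lost with a replicate block (edgeR adjusted p = 0.330), with contigs as deposited (0.127) and on leaving out any single interstitial library of 3 or 5 days. For c14706_g1 the call was lost with no filter (edgeR adjusted p = 0.0549), a replicate block (0.330) and contigs as deposited (0.102). Leaving out ISC_high replicate D, ISC_medium replicate A or ISC_medium replicate B lost it too. A link between the 2 traits was not tested.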

How the data were processed

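The authors deposited raw counts per contig for 22 libraries (13971099 to 31723680 per library) and a signal table, in which 26024 contigs carry their count times a factor for the library; the deposited signal was used only for those factors. Per the submitters' processing notes, cutadapt 1.11, Salmon 0.7.2 and DESeq2 were used, with no role or order given. Every column was tied to a sample (0 were not). Here counts were summed per stem. CPM used column totals, as the choice of members did. Tests used edgeR 4.0.16 in R 4.3.3 on the 20 sorted libraries, with TMM scaling, filterByExpr (minimum count 10, minimum total 15), 1 mean per group and Benjamini-Hochberg adjustment over 18288 stems at 0.05; all 150 members were tested. The days fit added gate and day (2, 3 and 5) as terms. SE is the fitted log2 change over the square root of F. The fits were tested on simulated data. Alternatives were other scalings, DESeq2 1.42.0, other filters, contigs unsummed, a replicate block, a depth-class term and leaving out each library.

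The members, the comparisons and the alternatives were chosen with earlier results of these data known. Named are the 8 members with the highest smaller ratio, the last 2 and the first 2 outside, the 4 most abundant, the called members with the largest differences, the 3 most abundant in ISC_high, the 3 highest in the unsorted columns and members that share a component; c17975_g1, c25562_g2 and the 13 low in interstitial cells were named after their values were seen. The depth class in gESC_3d, the depth term for the epithelial changes, the eligible stems as a background for the unsorted columns and other scalings of these columns were chosen after seeing the data.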

Additional observations from a re-analysis of the deposited data

Results flagged for a closer look

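In groups of 4 libraries, 60 sets of values were tested for a library far from the others by Dixon's criterion at 95%. The sets were the levels of the named transcripts of the list, and the median CPM and share of counts of the whole list. Chance meets the criterion in about 1 in 20 groups, and 4 sets met it, all of named transcripts. In ISC_high, replicate C stood apart for c31317_g1, at 248 CPM against 31.7 to 41.6 in the other 3 libraries, and for c9192_g1, at 375 CPM against 7.32 to 10.6. In the same group replicate A stood apart for c19030_g2, at 64.9 CPM against 51.2 to 53.3. In eESC_10d, replicate C stood apart for c19075_g1, at 83.4 CPM against 111 to 112.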

How the results depend on the processing

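Counts of called members are given against 36 (layers at 3 days), 38 (layers at 10 days), 90 (gate) and 20 (5 against 3 days in interstitial cells). The share of all stems tested that was called also moved with the setting. For the layers at 3 days it was 49.6% in the main fit and 21% without a filter. The counts below thus show how far a number moved and are not results about the members alone. With library size alone as scaling the counts were 68, 59, 50 and 12. With only the groups compared in the fit, 60 were called between layers at 10 days and 43 for the days. A term for depth class left 15 for the gate, though no interstitial library informs that term. For the days, median-of-ratios factors gave 8, the authors' factors 9, no filter 3, and contigs as deposited 1. Leaving out 1 library gave 52 to 88 for the gate, with the 52 without ISC_medium replicate A, and 0 to 20 for the days. The median log2 ratio of the members between 3 and 10 days was 0.97 under TMM against 0.79 in eESC, and 0.25 with gESC_3d replicate C alone against 0.65 in gESC. Leaving out 1 library kept 103 (without gESC_3d replicate A) to 148 of the 150 members. Among single transcripts named for a contrast, 33 of the alternatives tried for the days, 7 for the gate and 1 for the layers at 3 days lost the call, and no direction was reversed. The cause was not tested, other than the fewer libraries or stems that an alternative itself brings.

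Replicate letters are shared between groups. Deviations from the group means of libraries with the same letter correlated at 0.24, -0.16 and 0.25 between layers at 3 days, 0.34, 0.23 and -0.016 at 10 days and 0.25, -0.068 and -0.0078 between gates. These values do not show that the letters pair the samples, and with so few libraries per group they cannot exclude it. With a replicate block the counts were 42, 40, 91 and 0, the last with 32 members at an unadjusted p under 0.05 by edgeR.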
